A study of Mus musculus with 64 samples.

Results

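Rab proteins are small GTPases that mark the membranes of a cell, and the genes described here are those whose symbol is Rab followed directly by a digit and then only letters or digits. Symbols containing ip, fip or if were left out, only probe sets with 1 gene symbol were used, and the brightest probe set stood for a gene with several. The rule took 62 of the 18820 genes measured. Of these 58 were Rab GTPases, and 4 were other genes whose symbols fit the rule: Rab3il1, an exchange factor, Rab3gap1 and Rab3gap2, the subunits of a GTPase-activating complex, and Rab10os, a transcript from the strand opposite Rab10. The cells were primary macrophages, differentiated in CSF1 (10000 U/ml) from marrow of 7 to 8 weeks old males of the strains BALB/c and C57BL/6 and stimulated on day 7, and their RNA was read on 64 Affymetrix arrays. Those of BALB/c were given 10 U/ml of IFN-beta, 10 U/ml of IFN-gamma or 5 ng/ml of LPS (bacterial lipopolysaccharide), and those of C57BL/6 were given LPS alone at 50, 5 or 0.5 ng/ml. Each treatment was sampled at 1, 2, 4, 8 and 24 h and each strain once untreated at 0 h, which gave 32 groups of 2 wells with 1 array per well. There were no untreated wells after 0 h, so a change from 0 h includes whatever time in culture changed, and the labels do not say that wells came from separate animals, so p-values here measure the spread between wells.

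A Rab protein is switched on by an exchange factor that loads GTP and switched off by a GTPase-activating protein, and in its active state it recruits effectors that move, tether or fuse a vesicle. Chaperones extract the prenylated, inactive protein from one membrane and deliver it to another. In macrophages Rab proteins govern the uptake of particles, the maturation of the phagosome into an acidic, degradative compartment, the traffic of Toll-like receptors and the release of cytokines and granule contents. Different Rabs mark successive compartments, with Rab5 on early endosomes, Rab7 on late endosomes and lysosomes, Rab11 on recycling endosomes and Rab1, Rab2 and Rab6 in the early secretory pathway.

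All values are log2 of the deposited intensity or differences of it, where 1 log2 is a 2-fold difference. A gene was called in a comparison when limma's F-test over its time points gave a Benjamini-Hochberg adjusted p under 0.05 over all 18820 genes and at least 1 time point differed by 1 log2 or more. The adjusted p therefore tests all times together and not the printed time alone. Each difference is given ± its SE from the fit at the time of the largest change, with n = 2 arrays per group.

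Of the 8 macrophage markers measured, among them Csf1r and Adgre1, all lay above the 40th percentile of all values on every array. Of 5 T, B and NK cell markers 4 lay below it on every array, and their summed intensity stayed between 52.3 and 69.8. Other markers moved with time and treatment. The summed intensity of 4 fibroblast markers was 140 at 0 h and 700 at 8 h of LPS in BALB/c cells, and 106 at 0 h and between 202 and 375 at 8 h in C57BL/6 cells. Of these, Pdgfrb and Dcn reached 9.20 and 7.80 in log2, while the collagens Col1a1 and Col3a1 stayed below 5.54 and 5.20. The sum of 5 dendritic cell markers was 92.3 at 0 h and 626 at 24 h in BALB/c, and 132 at 0 h and between 316 and 583 at 24 h in C57BL/6. At 24 h of IFN-gamma it was 257. Among these markers Ccr7 reached 9.32 in log2 and Clec9a 7.51. Ccr7 lay above the 40th percentile on all 64 arrays, Zbtb46 on 53, and Flt3, Clec9a and Xcr1 on 8, 4 and 3. Which of them carried the sum under each stimulus was not tested. The sum of 9 granulocyte markers was 438 at 0 h in BALB/c and 272, 206 and 236 at 24 h of IFN-beta, IFN-gamma and LPS. In C57BL/6 it was 763 at 0 h and 415, 367 and 714 at 24 h from the highest to the lowest dose. Of these markers Mmp8 had the highest median, 8.21 in log2, followed by S100a8 at 5.44. Medians of the rest lay between 3.19 and 4.66, so the sum mostly follows Mmp8. The part of these genes in the results below was not tested, and in such bulk samples fewer cells of a type and less RNA per cell cannot be told apart. Over probe sets without a gene, a set of 11 arrays stood apart from the other 53. Of IFN-beta at 4 h it included the complete pair, and of 9 other groups 1 array each. Further, 5 pairs of replicate arrays differed by over 1.5 log2 in 10 or more genes after the shift of that set was taken out. In C57BL/6 these were 1 h of 50 ng/ml (80 genes), 24 h of 5 ng/ml (30) and 1 h of 0.5 ng/ml (25). In BALB/c they were 4 h (14) and 2 h (12) of IFN-gamma. Among the 217 genes that rose by 3 log2 or more with LPS in BALB/c, 97 were already higher in C57BL/6 than in BALB/c cells at 0 h, so changes from 0 h in C57BL/6 start from such arrays.

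To show the regulatory sequence of genes whose changes differed between stimuli, the 250 bases before and the first 10 bases after the annotated start are printed for 3 genes. These are Rab19 and Rab39, which were called higher with interferon and not with LPS, and Rab20, which was called higher with LPS. The sequences are from RefSeq on build GRCm38.p6, read 5′ to 3′ on the strand of the gene, with matches to the searched motifs in capitals. Rab19 lies at chr6:39381103-39381362 on the plus strand, Rab39 at chr9:53706223-53706482 on the minus strand and Rab20 at chr8:11478631-11478890 on the minus strand.
Rab19: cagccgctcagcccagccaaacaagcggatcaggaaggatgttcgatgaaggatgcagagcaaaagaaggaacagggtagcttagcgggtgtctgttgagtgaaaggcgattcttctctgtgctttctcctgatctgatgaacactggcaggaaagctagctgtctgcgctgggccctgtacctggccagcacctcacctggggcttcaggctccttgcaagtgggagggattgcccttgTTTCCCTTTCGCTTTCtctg
Rab39: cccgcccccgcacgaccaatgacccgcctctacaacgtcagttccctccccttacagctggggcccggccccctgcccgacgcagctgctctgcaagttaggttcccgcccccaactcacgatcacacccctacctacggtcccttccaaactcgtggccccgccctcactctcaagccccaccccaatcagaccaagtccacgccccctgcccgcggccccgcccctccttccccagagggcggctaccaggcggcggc
Rab20: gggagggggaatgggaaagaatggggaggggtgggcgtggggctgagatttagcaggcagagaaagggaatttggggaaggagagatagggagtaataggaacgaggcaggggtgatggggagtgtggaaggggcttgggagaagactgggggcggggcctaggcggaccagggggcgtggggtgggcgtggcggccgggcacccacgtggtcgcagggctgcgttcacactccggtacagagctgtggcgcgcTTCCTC
The run of capitals at the end of the Rab19 sequence holds 2 overlapping matches to the core of the interferon-stimulated response element, the site of interferon regulatory factors, defined here as 2 GAAA units separated by any 2 bases on either strand. They read TTTCCCTTTC from position -10 and TTTCGCTTTC from position -4, counted from the start site. The Rab39 sequence held no match to any of the 5 motifs, and the Rab20 sequence held the PU.1 core GAGGAA, read on the opposite strand, at position 5. A match describes letters only and does not show that a factor binds.

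Windows of 300 bases, 250 before and 50 after a start site, were found for 52 of the 62 genes, 68 windows in all. The response element core was in 2 of the 68 windows (2.94%), those of Rab19 and Rab10os, against 3.44% of all 32851 windows. The kB consensus of NF-kB was in 7.35% of Rab windows and 8.46% of all, the AP-1 site TGANTCA in 4.41% and 7.81%, and the PU.1 core in 22.1% and 28.3%. The core TCACGTGA, bound by the lysosomal regulator Tfeb, was in 3 Rab windows (4.41%), those of Rab21, Rab24 and Rab5a, and in 0.974% of all. Both strands were searched, and matches that overlapped were kept.

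In BALB/c cells LPS changed 13 Rab genes, most of them downward, where IFN-beta changed 6 and IFN-gamma 4. In BALB/c cells under LPS 2 Rab genes rose and 11 fell, where 7.44% of all genes rose and 9.72% fell. In C57BL/6 cells 4 rose and 7 fell at 50 ng/ml (6.26% and 8.73% of all genes), 4 rose and 5 fell at 5 ng/ml (5.88% and 8.41%), and 1 rose and 3 fell at 0.5 ng/ml (4.02% and 5.09%). With IFN-beta 5 rose and 1 fell, against 4.05% and 3.87% of all genes. With IFN-gamma 4 were called by limma, all higher, against 3.1% of all genes called higher and 2.27% called lower. At limma's unadjusted p under 0.05, 25 of the 62 Rab genes passed with IFN-gamma, beside 7115 of all 18820 genes. As a share of the 62 Rab genes, the falls in BALB/c under LPS came to 17.7% and the rises with IFN-beta to 8.06%. Without the 4 genes that are not GTPases the counts under LPS were 10 lower in BALB/c and 6, 4 and 2 lower in C57BL/6, and all other counts of the 6 courses stayed the same.

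The size of the changes was near that of all genes. The median of the largest absolute change was 0.47 for Rab genes and 0.42 for all genes in BALB/c under LPS, 0.33 and 0.35 with IFN-beta, and 0.32 for both with IFN-gamma. In C57BL/6 it was 0.40 for both at 50 ng/ml, 0.44 and 0.41 at 5 ng/ml and 0.37 for both at 0.5 ng/ml. Of the 62 genes 20 were called in at least 1 of the 6 courses and 42 in none, of which 33 spanned less than 1 log2 over all 32 group means. On detection, 47 lay above the 40th percentile on every array, 4 (Rab27b, Rab30, Rab3c and Rab9b) below it on every array, and 11 on both sides of it.

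**Figure D1:**
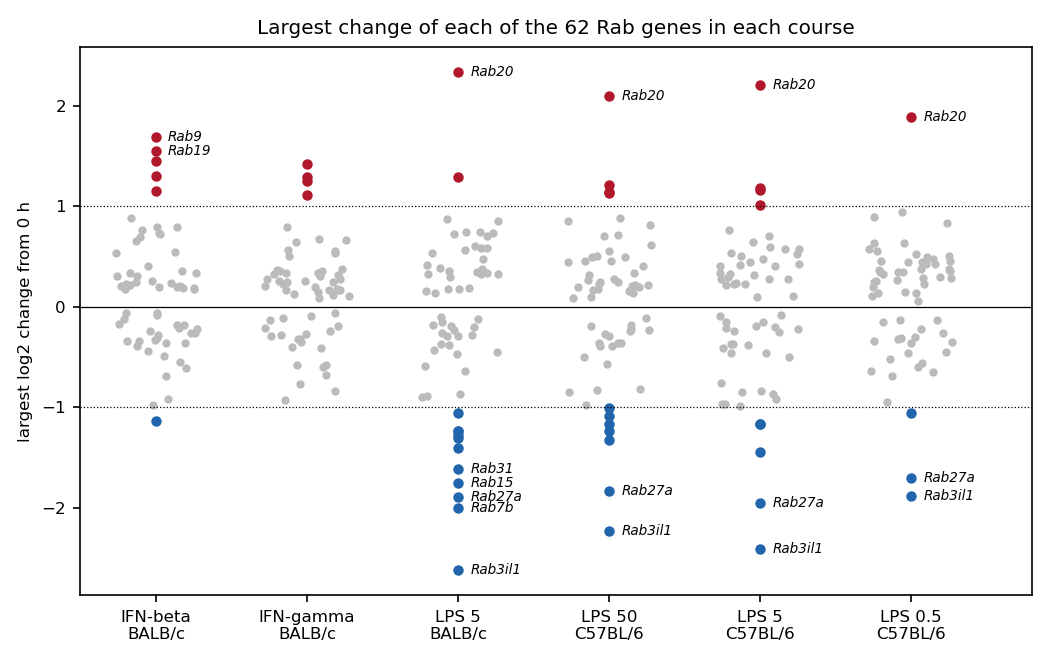
Largest log2 change from 0 h of each of the 62 genes (vertical axis) in each of 6 courses (horizontal axis), 1 point per gene. Red points were called higher, blue points lower and grey points were not called, and dotted lines mark 1 log2. Rab20 is the highest point in the 4 LPS courses and Rab3il1 the lowest.

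The 20 called genes followed different time courses. Rab20 was higher at every sampled time of LPS in BALB/c cells, whereas Rab3il1 and Rab27a were low from 4 h on and Rab31 at 8 and 24 h. Rab7b was low at 4 and 8 h of LPS. Rab19, Rab39 and Rab43 peaked at 4, 8 or 24 h of interferon. Of the 20, Rab20 was called higher in all 4 LPS courses, and Rab3il1 and Rab27a were called lower in all 4. Rab19 and Rab15 were called higher with interferon and lower with LPS in BALB/c, but in no LPS course of C57BL/6.

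**Figure D2:**
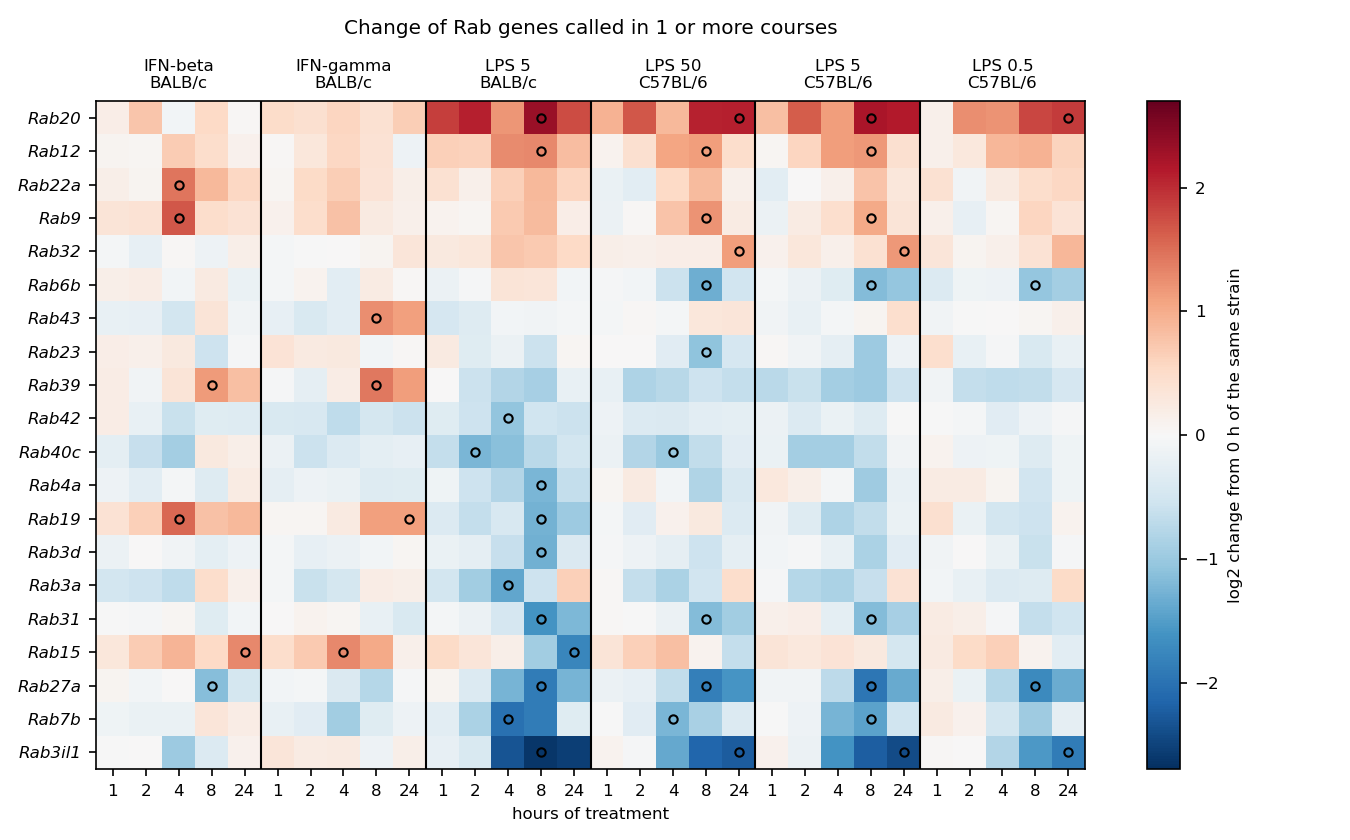
Log2 change from 0 h of the same strain (colour, red higher and blue lower) for the 20 genes called in 1 or more courses (rows) at 5 times in 6 courses (columns). A circle marks the time of the largest change in a course where the gene was called, such as 8 h for Rab3il1 under LPS in BALB/c (-2.62).

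All called members of the group of lysosome-related organelles and phagosomes (Rab20, Rab32 and Rab38) rose. Under LPS 1 of the 3 rose in BALB/c cells, 2 at 50 ng/ml, 2 at 5 ng/ml and 1 at 0.5 ng/ml in C57BL/6, with medians of 0.74, 1.14, 1.18 and 0.89 against -0.19, -0.17, -0.17 and -0.15 over all genes. Rab20, which is found on maturing phagosomes of macrophages, gave the largest rise of any Rab gene. In BALB/c cells Rab20 (probe set 10577025) read 7.44 and 7.47 at 0 h, 9.50 and 9.14 at 1 h of LPS, 9.65 and 9.47 at 2 h, 8.66 and 8.63 at 4 h, 9.74 and 9.84 at 8 h, and 9.36 and 9.06 at 24 h. All 10 treated arrays lay above both 0 h arrays. The rise at 8 h was 2.34 ± 0.15, or 5.06-fold (adjusted p = 2.8e-16 by limma).

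In C57BL/6 cells Rab20 started at 7.69 and 7.71. At 50 ng/ml its 10 arrays lay between 8.51 and 9.82, at 5 ng/ml between 8.44 and 9.93 and at 0.5 ng/ml between 7.81 and 9.60, all above the 0 h arrays. The largest rises were 2.09 ± 0.15 at 24 h (adjusted p = 9.8e-16 by limma) at 50 ng/ml, 2.21 ± 0.15 at 8 h (3.3e-16) at 5 ng/ml and 1.89 ± 0.15 at 24 h (2.6e-15) at 0.5 ng/ml. These 3 courses share their 0 h wells. The level of Rab20 at 4 h was below those at 2 and 8 h, a feature named after the values were seen. From 2 to 4 h it differed by -0.92 in BALB/c, -0.79 at 50 ng/ml, -0.52 at 5 ng/ml and -0.03 at 0.5 ng/ml, and from 4 to 8 h by 1.15, 1.19, 1.09 and 0.60, each with an SE of 0.15. In BALB/c and at the upper doses the arrays of 2 and 4 h did not overlap, nor did those of 4 and 8 h, while at 0.5 ng/ml the arrays of 2 and 4 h overlapped.

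Rab32, which with Rab38 directs enzymes to melanosomes and other lysosome-related organelles, rose late in C57BL/6 cells. It read 9.26 and 9.44 at 0 h, 10.48 and 10.49 at 24 h of 50 ng/ml, 10.52 and 10.53 at 24 h of 5 ng/ml, and 10.09 and 10.40 at 24 h of 0.5 ng/ml. The rises were 1.14 ± 0.16 (adjusted p = 1.4e-06 by limma), 1.18 ± 0.16 (7.9e-07) and 0.89 ± 0.16 (0.00019), the last under the minimum change. Rab32 in BALB/c read 9.19 and 9.10 at 0 h, 9.88 and 9.89 at 4 h, and its largest difference was 0.74 ± 0.16 (0.00084), also under the minimum. Rab38 was dim, with readings from 3.83 to 5.30 over all 64 arrays. Its largest difference was 0.88 ± 0.21 at 4 h of 50 ng/ml (adjusted p = 0.0028), from 4.03 and 4.07 at 0 h to 5.19 and 4.68.

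**Figure D3:**
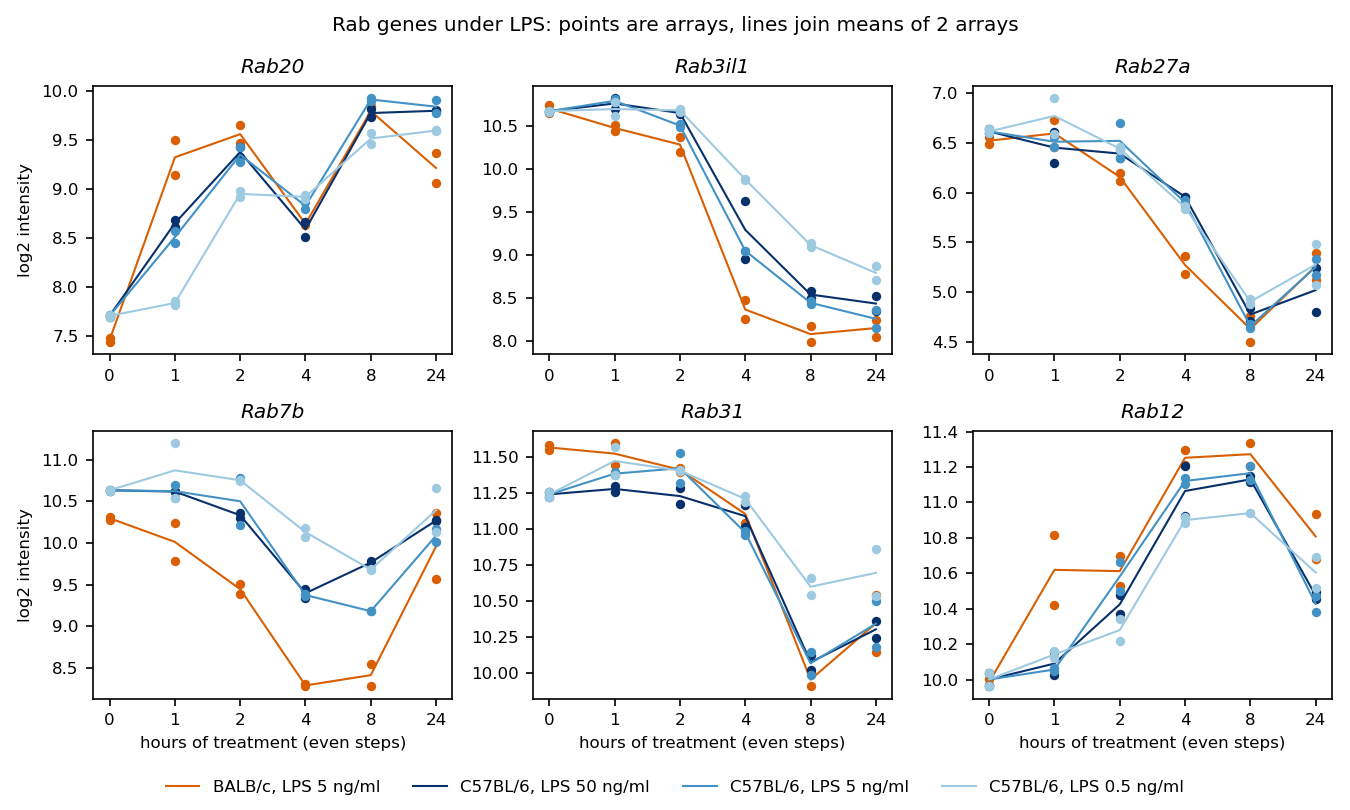
Log2 intensity (vertical axes) of Rab20, Rab3il1, Rab27a, Rab7b, Rab31 and Rab12 at 0 to 24 h of LPS (horizontal axes, even steps) in BALB/c at 5 ng/ml and in C57BL/6 at 50, 5 and 0.5 ng/ml. Points are single arrays and lines join the means of 2 arrays. Rab20 and Rab12 lie higher and the other 4 genes lower at 8 h than at 0 h in every course.

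Genes of regulated secretion were lower at the time of their largest change where they were called. Of the 7 measured, 3 fell in BALB/c cells under LPS (Rab27a, Rab3a and Rab3d) and 1, Rab27a, in each C57BL/6 course, while the group's median change was -0.47 in BALB/c against -0.19 over all genes. Rab27a docks secretory lysosomes and exosome-bearing endosomes at the plasma membrane. Its values in BALB/c (probe set 10587023) were 6.56 and 6.48 at 0 h, 6.46 and 6.73 at 1 h of LPS, 6.20 and 6.12 at 2 h, 5.36 and 5.18 at 4 h, 4.76 and 4.50 at 8 h and 5.12 and 5.39 at 24 h. From 2 h on, all arrays lay below both 0 h arrays. The change at 8 h was -1.89 ± 0.17, or 3.71-fold (adjusted p = 9.5e-14 by limma).

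In C57BL/6 cells Rab27a read 6.63 and 6.59 at 0 h and, at 8 h, 4.84 and 4.71 with 50 ng/ml, 4.64 and 4.67 with 5 ng/ml and 4.93 and 4.88 with 0.5 ng/ml. The changes were -1.84, -1.96 and -1.71 (each ± 0.17), so the lowest dose gave nearly the change of the highest. The paralogue Rab27b was below the 40th percentile on every array and had no change over 0.20. Rab3a and Rab3d act on synaptic vesicles and on secretory granules. Rab3a in BALB/c changed by -1.41 ± 0.15 at 4 h and Rab3d by -1.30 ± 0.10 at 8 h (adjusted p = 2.1e-13 and 2.2e-13 by limma). The fall of Rab3a did not last. Its mean was 4.64 at 4 h and 6.69 at 24 h of LPS, the lowest and the highest of all 32 groups, 0 h included. Replicate 2 of that 24 h group belongs to the set of 11 arrays. In C57BL/6 at 5 ng/ml Rab3a changed by -0.84 at 4 h and Rab3d by -0.86 at 8 h, with adjusted p-values under the threshold but changes under the minimum. Rab3b and Rab3c were not called in any course.

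Rab3il1, an exchange factor and not a GTPase, gave the largest fall. Arrays of BALB/c (probe set 10461408) read 10.66 and 10.76 at 0 h, 10.51 and 10.45 at 1 h of LPS, 10.20 and 10.38 at 2 h, 8.48 and 8.26 at 4 h, 8.00 and 8.18 at 8 h and 8.26 and 8.06 at 24 h. The arrays from 4 h on lay below all earlier ones. The change at 8 h was -2.62 ± 0.12, or 6.16-fold (adjusted p = 5e-24 by limma). In C57BL/6 it read 10.67 and 10.68 at 0 h and, at 24 h, 8.36 and 8.52 with 50 ng/ml, 8.37 and 8.16 with 5 ng/ml and 8.72 and 8.88 with 0.5 ng/ml. The changes there were -2.24, -2.41 and -1.88, each ± 0.12. Rab3gap2 had adjusted p-values under the threshold in these 4 courses with changes under the minimum, the largest -0.98 ± 0.08 at 8 h of 50 ng/ml, whereas Rab3gap1 had no change over 0.33.

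Among 9 genes of the early endosome 2 fell in BALB/c cells under LPS (Rab31 and Rab4a), and Rab31 alone fell in C57BL/6 at 50 and 5 ng/ml. Rab31, a relative of Rab22a that carries cargo between the trans-Golgi network and endosomes, had a probe set (10452485) among the brighter ones. For BALB/c Rab31 read 11.55 and 11.58 at 0 h, 11.45 and 11.60 at 1 h of LPS, 11.43 and 11.40 at 2 h, 11.17 and 11.05 at 4 h, 9.91 and 10.00 at 8 h and 10.15 and 10.55 at 24 h. The arrays of 8 and 24 h lay below all others. The change at 8 h was -1.61 ± 0.12, or 3.06-fold (adjusted p = 6e-16 by limma).

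In C57BL/6 cells Rab31 read 11.26 and 11.23 at 0 h and at 8 h 10.13 and 10.02 with 50 ng/ml, 10.15 and 9.99 with 5 ng/ml and 10.54 and 10.66 with 0.5 ng/ml. The changes at 8 h were -1.17 at 50 ng/ml, -1.17 at 5 ng/ml and -0.64 at 0.5 ng/ml, each ± 0.12, the last under the minimum. Rab4a, which drives rapid recycling from early endosomes, changed by -1.24 ± 0.21 at 8 h in BALB/c (adjusted p = 1.8e-05 by limma) and by -0.81, -0.97 and -0.52 in C57BL/6 from the highest to the lowest dose. Its paralogue Rab4b had no change over 0.35. The 3 Rab5 genes, which drive fusion of early endosomes, were not called. Rab5a differed under LPS by up to 0.72 ± 0.17 at 8 h of 50 ng/ml and with IFN-beta by 0.80 ± 0.17 at 4 h (adjusted p = 0.0022 and 0.0012), the latter being 0.39 with the set of 11 as a covariate, while the largest change was 0.22 for Rab5b and 0.14 for Rab5c over all 6 courses.

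Among 8 genes of late endosomes, lysosomes and autophagy, Rab7b fell and Rab9 rose under LPS. Rab7b acts between late endosomes and the trans-Golgi network and has been described as a brake on Toll-like receptor signalling in macrophages. Rab7b in BALB/c (probe set 10349661) read 10.32 and 10.28 at 0 h, 9.78 and 10.25 at 1 h of LPS, 9.38 and 9.51 at 2 h, 8.30 and 8.28 at 4 h, 8.29 and 8.55 at 8 h and 9.57 and 10.36 at 24 h. The arrays of 4 and 8 h were the lowest. Of the 24 h arrays replicate 2, which belongs to the set of 11, was back above 0 h, while replicate 1 was still below it. The change at 4 h was -2.01 ± 0.20, or 4.02-fold (adjusted p = 3e-12 by limma).

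In C57BL/6 cells Rab7b started at 10.63 and 10.64 and read 9.46 and 9.34 at 4 h of 50 ng/ml, 9.19 and 9.18 at 8 h of 5 ng/ml and 9.69 and 9.68 at 8 h of 0.5 ng/ml. The changes were -1.23 at 50 ng/ml, -1.45 at 5 ng/ml and, under the minimum, -0.95 at 0.5 ng/ml, each ± 0.20. Rab7 itself, the main Rab of late endosomes, had no change over 0.20 in any course. Rab9, which returns mannose 6-phosphate receptors from late endosomes to the Golgi, rose in C57BL/6 cells by 1.21 ± 0.19 at 8 h of 50 ng/ml (adjusted p = 1.3e-07 by limma) and by 1.02 ± 0.19 at 8 h of 5 ng/ml (3.1e-05). From 8.48 and 8.32 at 0 h Rab9 reached 9.64 and 9.59, and 9.40 and 9.43. At 5 ng/ml the change fell under 1 log2 without replicate 2 of 0 h (0.94), without replicate 2 of 8 h (0.9992) and after quantile normalisation (0.9968).

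Among 11 genes of recycling and the plasma membrane, Rab12 rose and Rab15 fell. Rab12, which sends transferrin receptors to lysosomes, read 10.00 and 9.97 at 0 h and 11.21 and 11.34 at 8 h of LPS in BALB/c, a rise of 1.29 ± 0.12 (adjusted p = 7.7e-12 by limma). In C57BL/6 it changed at 8 h by 1.13, 1.16 and 0.94 (each ± 0.12) from the highest to the lowest dose, the last under the minimum. Rab15, a Rab of endosomal recycling best known from neurons, fell in BALB/c from 6.56 and 6.71 at 0 h to 4.66 and 5.10 at 24 h of LPS. That change was -1.75 ± 0.22, or 3.37-fold (adjusted p = 8.2e-12 by limma). It read 7.25 and 7.05 at 1 h, 6.90 and 7.04 at 2 h, 6.94 and 6.65 at 4 h and 5.50 and 5.88 at 8 h, so that the arrays of 8 and 24 h lay below 0 h and those of 1 to 4 h did not. The change over all 6 courses was at most 0.28 for Rab11a and 0.35 for Rab11b, the Rabs of slow recycling.

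Among 14 genes of the ER and Golgi, Rab19 fell in BALB/c cells and Rab6b in C57BL/6 cells. Rab19, a little studied Golgi Rab, read 7.32 and 7.26 at 0 h and 5.89 and 6.14 at 8 h of LPS in BALB/c, a change of -1.28 ± 0.13 (adjusted p = 5e-10 by limma). Rab6b, the Rab6 form enriched in brain, fell in C57BL/6, with changes at 8 h of -1.33, -1.17 and -1.05 (each ± 0.25) from the highest to the lowest dose. At 0.5 ng/ml the change of Rab6b fell under 1 log2 without replicate 2 of 0 h (-0.99) or without replicate 1 of 8 h (-0.88). Its paralogue Rab6a was not called, with at most 0.64 at 24 h of 0.5 ng/ml.

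Of the 6 remaining GTPases, Rab40c and Rab42 fell in BALB/c under LPS, and Rab40c and Rab23 at 50 ng/ml in C57BL/6. Rab40c, which carries a SOCS box and joins ubiquitin ligases, changed by -1.23 ± 0.12 at 2 h in BALB/c, the earliest peak among the called genes, and by -1.01 ± 0.12 at 4 h of 50 ng/ml. The value at 50 ng/ml was -0.95 after each array was centred on its median, and -0.87 without replicate 2 of 0 h, both under the minimum. Rab23, an inhibitor of Hedgehog signalling, changed by -1.09 ± 0.14 at 8 h of 50 ng/ml and by -0.88 without replicate 1 of that group. Rab42 changed by -1.06 ± 0.28 at 4 h (adjusted p = 0.045 by limma). It was near the 40th percentile in most groups, and its adjusted p was between 0.054 and 0.24 in 5 of the 12 fits that each left out 1 array.

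Because the values of LPS-treated C57BL/6 cells are compared with 0 h arrays that already carried many LPS genes, changes were also taken from 1 h. The 1 h groups of 50 and 0.5 ng/ml are among the 5 pairs of replicates that stood apart. The falls of Rab3il1 (-2.33, -2.53 and -1.90 from the highest to the lowest dose) and of Rab27a (-1.68, -1.85 and -1.87) were then much as before. Those of Rab6b at 0.5 ng/ml (-0.69) and Rab40c at 50 ng/ml (-0.84) and the rise of Rab32 at 50 ng/ml (0.98) were then under the minimum. Rab20 then changed by 1.15, 1.41 and 1.76 in C57BL/6 but by 0.47 in BALB/c, where the 1 h arrays were already high. In BALB/c 8 Rab genes were called under LPS from 1 h, 1 higher and 7 lower. The 1 called higher was Rab3a, whose mean was 6.69 at 24 h. At 4 h, the time of its fall from 0 h, Rab3a changed by -0.92 from 1 h. Rab12 (0.65), Rab19 (-0.91), Rab40c (-0.59) and Rab42 (-0.74) were, like Rab20, no longer among the called genes.

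Interferon raised a small number of Rab genes, of which Rab19, Rab39 and Rab15 rose with both interferons. The 2 courses share the 0 h wells of BALB/c. Rab19 (probe set 10537428) read 7.32 and 7.26 at 0 h. With IFN-beta it read 7.69 and 7.67 at 1 h, 7.89 and 7.98 at 2 h, 8.84 and 8.84 at 4 h, 8.10 and 8.08 at 8 h and 8.10 and 8.25 at 24 h. With IFN-gamma it read 7.21 and 7.48 at 1 h, 7.46 and 7.21 at 2 h, 7.59 and 7.48 at 4 h, 8.37 and 8.43 at 8 h and 8.41 and 8.39 at 24 h. It was thus high at every time with IFN-beta and from 8 h on with IFN-gamma. The rises of Rab19 were 1.55 ± 0.13 at 4 h with IFN-beta (2.93-fold, adjusted p = 5e-11 by limma) and 1.11 ± 0.13 at 24 h with IFN-gamma (2.16-fold, 3.8e-11). With the set of 11 arrays as a covariate the rise at 4 h of IFN-beta, where both arrays belong to that set, was 1.49.

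Rab39, a Rab found on late endosomes and phagosomes as well as the Golgi, rose later. It read 5.39 and 5.32 at 0 h, 6.40 and 6.62 at 8 h of IFN-beta and 6.98 and 6.57 at 8 h of IFN-gamma. The rises were 1.16 ± 0.19 (adjusted p = 1.8e-06 by limma) and 1.42 ± 0.19 (1e-09). With LPS its arrays at 8 h read 4.56 and 4.37, below 0 h, a change of -0.89 ± 0.19 that was under the minimum. The paralogue Rab39b was not called and reached at most 0.42 in size.

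Rab15 (probe set 10401114) rose with both interferons in the strain in which LPS lowered it. From 6.56 and 6.71 at 0 h it read 6.93 and 6.94 at 1 h of IFN-beta, 7.35 and 7.30 at 2 h, 7.60 and 7.52 at 4 h, 7.25 and 7.11 at 8 h and 7.85 and 8.02 at 24 h. With IFN-gamma it read 6.97 and 7.24 at 1 h, 7.34 and 7.33 at 2 h, 7.97 and 7.89 at 4 h, 7.73 and 7.58 at 8 h and 6.85 and 6.71 at 24 h. With IFN-beta the 24 h arrays were the highest, and with IFN-gamma those of 4 h, its 24 h arrays being back near 0 h. The rises of Rab15 were 1.30 ± 0.22 at 24 h of IFN-beta (adjusted p = 7.2e-05 by limma) and 1.29 ± 0.22 at 4 h of IFN-gamma (2.1e-05). Taken from 1 h they were 0.9964 and 0.82, under the minimum, as was Rab39 with IFN-beta at 0.96.

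Rab43, a Golgi Rab, was called with IFN-gamma and not with IFN-beta. It read 8.60 and 8.74 at 0 h, 9.97 and 9.87 at 8 h and 9.76 and 9.79 at 24 h of IFN-gamma, a rise of 1.25 ± 0.17 at 8 h (2.37-fold, adjusted p = 1e-11 by limma). At 8 h of IFN-beta Rab43 read 9.05 and 8.99. Its largest change with IFN-beta was -0.49 ± 0.17 at 4 h (0.0036).

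Rab9 and Rab22a were called with IFN-beta at 4 h, both arrays of which belong to the set of 11. Rab9 (probe set 10607832) read 8.58 and 8.61 at 0 h, 8.95 and 8.93 at 1 h of IFN-beta, 9.11 and 8.85 at 2 h, 10.19 and 10.37 at 4 h, 9.20 and 8.93 at 8 h and 8.68 and 9.28 at 24 h. Its rise at 4 h was 1.69 ± 0.19 (3.22-fold, adjusted p = 3.7e-08 by limma), and 1.28 with the set as a covariate. Rab22a, which recycles MHC class I and other cargo from early endosomes, read 9.48 and 9.49 at 0 h and 10.83 and 11.04 at 4 h, a rise of 1.45 ± 0.27 (7.9e-05), but 0.75 with the set as a covariate, under the minimum.

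Other arrays of the set were also high for Rab22a. Replicate 2 of IFN-gamma at 2 h read 10.39 against 9.60 in its replicate, and replicate 2 of LPS at 24 h in BALB/c read 10.43 against 9.72. For Rab9 the same arrays read 9.32 against 8.79, and 9.11 against 8.44. Rab27a fell with IFN-beta from 6.56 and 6.48 at 0 h to 5.42 and 5.34 at 8 h, a change of -1.14 ± 0.17 (adjusted p = 3e-07 by limma). With IFN-gamma Rab27a read 5.79 and 5.72 at 8 h, a change of -0.77 ± 0.17 (0.0012) under the minimum.

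**Figure D4:**
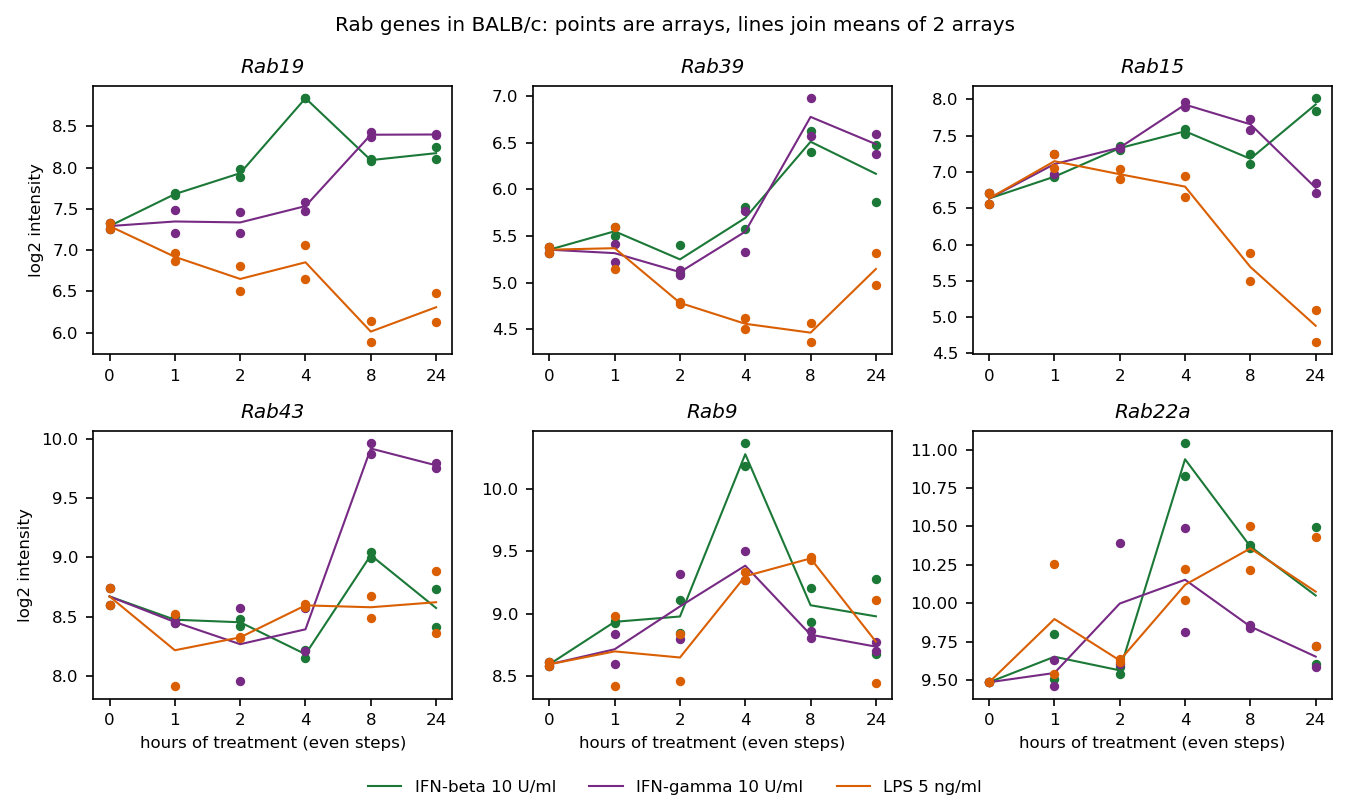
Log2 intensity (vertical axes) of Rab19, Rab39, Rab15, Rab43, Rab9 and Rab22a in BALB/c cells at 0 to 24 h (horizontal axes, even steps) of IFN-beta, IFN-gamma or LPS. Points are single arrays and lines join means of 2 arrays. Rab19 reaches 8.84 at 4 h of IFN-beta and 8.43 at 8 h of IFN-gamma, and falls to 5.89 at 8 h of LPS.

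The stimuli were then compared directly at matching times in BALB/c cells, which uses no 0 h arrays. Between IFN-beta and IFN-gamma 2 Rab genes were higher and 2 lower with IFN-beta, where 2.06% and 1.9% of all genes were. Rab19 was higher with IFN-beta by 1.31 ± 0.13 at 4 h and Rab15 by 1.15 ± 0.22 at 24 h, whereas Rab3il1 was lower, at -1.22 ± 0.12 at 4 h, and so was Rab43, at -1.20 ± 0.17 at 24 h (adjusted p = 9.4e-10, 0.00083, 7.5e-09 and 5.7e-07 by limma). Rab3il1 read 9.73 and 9.72 at 4 h of IFN-beta and 10.90 and 10.99 at 4 h of IFN-gamma. Rab43 differed by -0.9951 with the set of 11 as a covariate, just under the minimum.

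Against LPS, 9 Rab genes were higher and 1 was lower with IFN-beta (8.06% and 6.19% of all genes), and 9 were higher and 1 lower with IFN-gamma (7.51% and 6.09%). These comparisons share the LPS wells. Rab15 differed most from LPS with IFN-beta, by 3.05 ± 0.22 at 24 h or 8.29-fold, and Rab3il1 with IFN-gamma, by 2.71 ± 0.12 at 24 h or 6.53-fold (adjusted p = 1.6e-14 and 1.4e-25 by limma). Rab19 was higher with IFN-beta by 2.08 and with IFN-gamma by 2.39 at 8 h, each ± 0.13, and Rab39 by 2.04 and 2.31, each ± 0.19. Rab20 was the gene that was lower with both, with differences of -1.81 and -1.93 at 8 h, each ± 0.15.

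The other genes called against LPS were mostly those that LPS lowered. Rab7b was higher by 2.22 and 1.56, Rab31 by 1.28 and 1.41 and Rab3d by 1.04 and 1.22 with IFN-beta and IFN-gamma, all at 8 h. Rab27a was higher by 1.26 at 4 h of IFN-beta and by 1.22 at 24 h of IFN-gamma. Rab3a was called with IFN-beta alone (1.03 ± 0.15 at 8 h), and Rab43 with IFN-gamma alone (1.34 ± 0.17 at 8 h). The value of Rab3a fell to 0.83 without replicate 1 of LPS at 8 h and to 0.94 without replicate 1 of IFN-beta at 8 h, and that of Rab27a with IFN-beta to 0.91 with the set of 11 as a covariate. Rab3d with IFN-beta fell just under the minimum without replicate 1 of LPS at 8 h (0.9984).

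The LPS dose made a smaller difference. Between 50 and 0.5 ng/ml in C57BL/6 cells 0 Rab genes were called by limma, where 3.72% of all genes were. Without the minimum change 17 Rab genes passed the adjusted p, or 27.4% of 62, beside 25.3% of all genes. At limma's unadjusted p under 0.05, 20 of the 62 passed, beside 6807 of all 18820 genes. The largest of these differences, named after their values were seen, were -0.89 ± 0.12 for Rab40c at 4 h, 0.83 ± 0.13 for Rab19 at 8 h and 0.81 ± 0.15 for Rab20 at 1 h (adjusted p = 6.4e-08, 2.2e-07 and 7e-05).

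Rab19 in C57BL/6 cells differed in its course with dose. At 8 h it read 7.00 and 7.03 with 50 ng/ml, 6.07 and 6.12 with 5 ng/ml and 6.15 and 6.24 with 0.5 ng/ml, against 6.63 and 6.88 at 0 h. The arrays at 50 ng/ml lay above 0 h and those of the lower doses below it. Rab20 at 1 h read 8.68 and 8.61, 8.57 and 8.44, and 7.86 and 7.81 from the highest to the lowest dose, so that the lowest dose was close to the 7.69 and 7.71 of 0 h. Rab29, of the lysosome and trans-Golgi network, was 0.80 ± 0.10 higher at 50 than at 0.5 ng/ml at 8 h, and Rab7b differed by -0.73 ± 0.20 at 4 h (adjusted p = 1.5e-06 and 0.029).

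The strains differed in the level of a small number of Rab genes before any treatment. At 0 h Rab15 and Rab4a were higher and Rab6b lower in BALB/c, 3 of 62, where 2.36% of all genes were called. Rab6b read 4.63 and 4.97 in BALB/c and 7.26 and 7.39 in C57BL/6, a difference of -2.53 ± 0.25 or 5.76-fold (adjusted p = 5e-10 by limma's moderated test). Rab15 read 6.56 and 6.71 against 4.63 and 5.31, a difference of 1.67 ± 0.22 (2.3e-07), and Rab4a 6.98 and 7.12 against 5.66 and 5.94, a difference of 1.25 ± 0.21 (2.3e-05). Rab34, which positions lysosomes near the nucleus, differed by 0.82 ± 0.10 (1.8e-07), under the minimum.

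Rab6b and Rab34 were the 2 of the 62 genes whose 32 BALB/c arrays did not overlap the 32 C57BL/6 arrays, whatever the treatment. Rab6b ran from 4.25 to 5.42 with a median of 4.90 in BALB/c and from 5.98 to 7.46 with a median of 6.97 in C57BL/6. Rab34 ran from 8.08 to 8.53 in BALB/c (median 8.27) and from 7.45 to 7.94 in C57BL/6 (median 7.68).

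Under LPS at 5 ng/ml 4 Rab genes differed between strains, where 5.53% of all genes did. As BALB/c minus C57BL/6, Rab6b differed by -2.64 ± 0.25 and Rab15 by 1.83 ± 0.22 at 1 h, and Rab7b by -1.08 ± 0.20 at 4 h (adjusted p = 4.3e-15, 7.8e-12 and 4.1e-07 by limma). Rab2b, a Golgi Rab, was 1.12 ± 0.27 higher in BALB/c at 1 h (0.00021), but 0.63 without replicate 2 of BALB/c at 1 h and 0.78 with the set of 11, which holds that array, as a covariate.

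The change from 0 h itself differed between strains for 3 Rab genes, against 4.68% of all genes. Rab6b fell in C57BL/6 from 7.26 and 7.39 to 6.18 and 6.14 at 8 h. In BALB/c it read 4.63 and 4.97 at 0 h and 5.42 and 4.82 at 8 h. The changes differed by 1.48 ± 0.35 (adjusted p = 0.0035 by limma). Over all BALB/c arrays Rab6b ran from 4.25 to 5.42 with a median of 4.90, near the 40th percentile of 4.19. Whether this low level limited a measured fall in BALB/c was not tested. Rab15 changed by -1.75 in BALB/c and -0.47 in C57BL/6 at 24 h, a difference of -1.29 ± 0.31 (0.00026). That difference was -0.95 without replicate 1 of C57BL/6 at 0 h and -0.86 without replicate 2 of C57BL/6 at 24 h, which read 4.93 against 4.08 in its replicate. In C57BL/6 Rab15 started lower than in BALB/c, with 0 h arrays at 4.63 and 5.31 and the 40th percentile of all values at 4.19. Over all C57BL/6 arrays it ran from 4.08 to 5.79 with a median of 5.21. Whether the lower start limited the measured fall was not tested. At 1 h Rab20 rose by 1.06 ± 0.21 more in BALB/c than in C57BL/6 (4.5e-05), where it had also risen, and this was 0.88 without replicate 1 of BALB/c and 0.9974 without replicate 2 of C57BL/6 at 1 h.

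**Figure D5:**
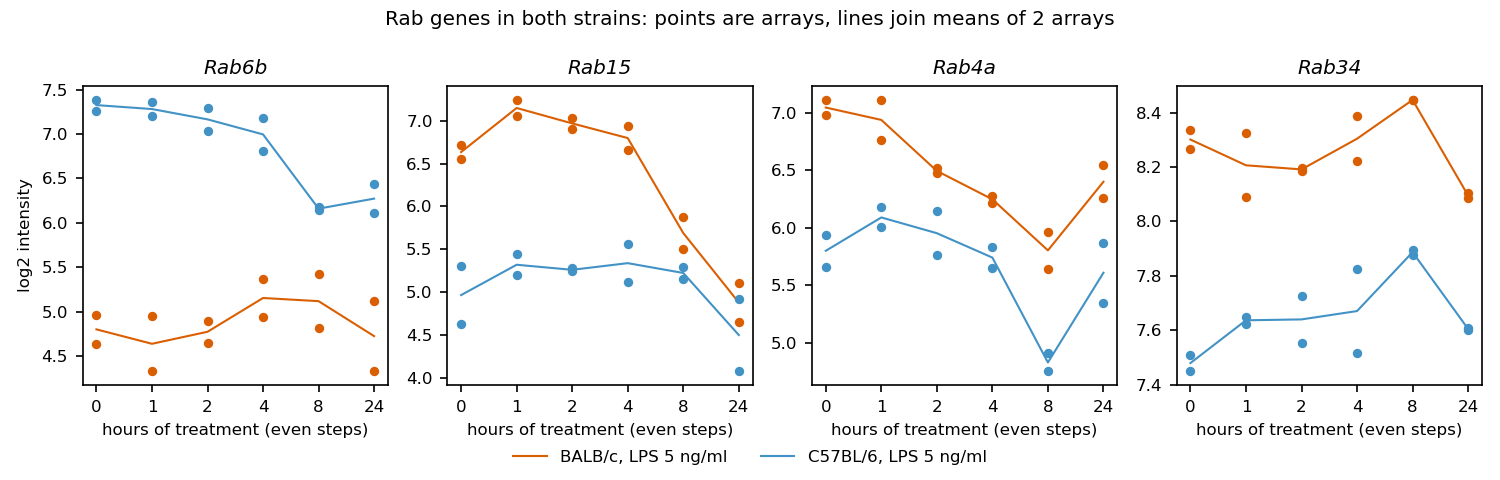
Log2 intensity (vertical axes) of Rab6b, Rab15, Rab4a and Rab34 in BALB/c and C57BL/6 cells at 0 to 24 h of LPS at 5 ng/ml (horizontal axes, even steps). Points are single arrays and lines join means of 2 arrays. For Rab6b all C57BL/6 points lie above all BALB/c points, and for Rab34 all lie below.

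The 42 genes called in no course included the housekeeping Rabs of most compartments. The largest changes among them were -0.98 for Rab3gap2 and -0.90 ± 0.21 at 8 h of LPS in BALB/c for Rab36, which like Rab34 acts on lysosome position. Next came 0.88 for the dim Rab38 at 50 ng/ml and 0.88 ± 0.10 at 4 h of IFN-beta for Rab29 (adjusted p = 0.0071 for Rab36 and 6.3e-09 for Rab29 by limma). Rab21, which acts in integrin endocytosis, differed by 0.77 ± 0.12 at 4 h of IFN-beta and by 0.72 ± 0.12 at 8 h of LPS in BALB/c (1.9e-06 and 8.9e-06). Both arrays of IFN-beta at 4 h belong to the set of 11, and with the set as a covariate the differences there were 0.56 for Rab21, 0.77 for Rab29 and 0.12 for Rab2b. Rab10, which takes part in the delivery of Tlr4 to the cell surface, differed by 0.60 ± 0.09 at 8 h of LPS in BALB/c (1.6e-07). Rab18, Rab2b, Rab33a and Rab33b reached between 0.73 and 0.84 in size. For 14 of the 62 genes no course passed the adjusted p.

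Smaller largest changes, between 0.32 and 0.50, were found for Rab1b, Rab8a, Rab8b, Rab13, Rab14, Rab28, Rab35 and Rab37. Rab1b and the related Rab1a (0.54) act between the ER and the Golgi, Rab8a and Rab8b on exocytic carriers, and Rab14 and Rab35 in recycling. Rab24, Rab25, Rab40b and Rab44 reached between 0.33 and 0.38. Rab2a, Rab17, Rab30 and Rab10os reached 0.65, 0.64, 0.48 and 0.59, and the dim Rab9b 0.21. Only Rab11b, Rab2a and Rab5b had a further probe set with a single gene symbol. The one not used for Rab11b spanned 1.18 over the group means, against 0.53 for the one used.

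Some genes that act on Rab proteins were called too. Their counts are read against the shares of all genes called. Those shares were 7.44% higher and 9.72% lower in BALB/c under LPS. In C57BL/6 they were 6.26%, 5.88% and 4.02% higher and 8.73%, 8.41% and 5.09% lower from the highest to the lowest dose. With IFN-beta they were 4.05% higher and 3.87% lower, and with IFN-gamma 3.1% and 2.27%. The lists of these regulators and effectors, like the Rab genes, were chosen with earlier results known. Of 30 exchange factors measured 6 rose (20% of the list) and 4 fell (13.3%) in BALB/c under LPS, 5 rose and 3 fell at 50 ng/ml, 4 rose and 3 fell at 5 ng/ml and 1 rose and 3 fell at 0.5 ng/ml in C57BL/6. With IFN-beta 2 rose and 4 fell (3 and 2 with the set of 11 as a covariate), and with IFN-gamma 1 rose. Dennd2c, of the DENN domain family of exchange factors, fell 9.21-fold at 8 h in BALB/c and changed by -3.37, -3.31 and -2.50 at 8 h in C57BL/6 from the highest to the lowest dose. Dennd3, an exchange factor of Rab12, rose by 2.07 ± 0.17 at 24 h in BALB/c. Rab3ip, the exchange factor of Rab8, rose by 1.68 and 1.52 at 8 h of 50 and 5 ng/ml (each ± 0.16) and by 1.24 ± 0.16 at 4 h of IFN-gamma.

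Of 36 GTPase-activating proteins 3 rose (8.33%) and 6 fell (16.7%) in BALB/c under LPS, and 5, 6 and 3 fell in C57BL/6 from the highest to the lowest dose. With IFN-beta 5 fell, 4 of them with their largest change at 4 h, where both arrays belong to the set of 11, and 3 fell with the set as a covariate. With IFN-gamma 19 of the 36 passed the adjusted p of limma, beside 28.9% of all genes, each of the 19 with a change under the minimum. The median change was -0.52 with IFN-beta (-0.35 with the covariate) and -0.32 with LPS in BALB/c, beside -0.19 over all genes in each. Tbc1d2, which acts on Rab7, changed by -2.07 ± 0.23 at 4 h of LPS in BALB/c, by -2.43, -2.61 and -1.04 in C57BL/6 from the highest to the lowest dose and by -1.59 ± 0.23 at 4 h of IFN-beta, or -1.07 with the covariate. Tbc1d4, known from insulin-driven transport of glucose transporters, changed by -1.84 ± 0.18 at 8 h in BALB/c, and Usp6nl, which acts on Rab5, by -1.56 ± 0.12.

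Of 35 effectors measured 3 rose (8.57%) and 2 fell (5.71%) in BALB/c under LPS, shares near or under those of all genes. In C57BL/6 cells 4 rose (11.4%) and 2 fell (5.71%) at 50 ng/ml, where 6.26% and 8.73% of all genes did. At 5 ng/ml 5 rose (14.3%) and 2 fell (5.71%), beside 5.88% and 8.41% of all genes. At 0.5 ng/ml 2 rose (5.71%), beside 4.02%. With IFN-beta 3 fell, all with their largest change at 4 h, and with the set of 11 as a covariate none of these passed the minimum, Rab11fip1 at -0.43, Micall1 at -0.66 and Ehbp1l1 at -0.84. With IFN-gamma 1 rose and 1 fell. Rab11fip1, an effector of Rab11, rose by 3.54 ± 0.34 at 4 h of LPS in BALB/c, or 11.7-fold (adjusted p = 3.7e-11 by limma), and by 2.60, 2.98 and 2.14 at 4 h in C57BL/6 from the highest to the lowest dose, while Rab11a and Rab11b themselves were not called. Appl1, an effector of Rab5, rose by 1.77 ± 0.10 at 8 h in BALB/c. With IFN-gamma Inpp5b, a phosphatase that binds several Rabs, rose by 1.79 ± 0.11 at 8 h. Of 7 chaperone and prenylation genes, Chml, a Rab escort protein, was the one called, with -1.47 and -1.19 (each ± 0.13) at 8 h of 50 and 5 ng/ml.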

How the data were processed

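RNA of 64 wells was hybridised to 64 Affymetrix arrays. The deposited values are linear intensity per probe set, from 2.49 to 17782, with array medians between 25.6 and 29 by the authors' own normalisation, whose method is not given in the sources used here. Per the submitters' processing notes Affymetrix Expression Console 1.1 was used. The deposited intensity was turned to log2 with no pseudocount and no further scaling. Of 35556 probe sets, 21218 had 1 gene symbol, 1881 had several and 12457 had none in the platform table. The brightest probe set by mean stood for the 1386 genes with several, which left 18820 genes, of which 18790 matched RefSeq. Probe sets naming Rab24, Rab26, Rab6a or Rab5if together with another gene were not used. No column belonged to another series. Replicate arrays correlated between 0.992 and 0.998 over genes. With 2 arrays per group, precision is limited by their number.

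All 64 arrays entered 1 model of 32 group means with 32 residual degrees of freedom (limma 3.58.1 in R 4.3.3, default eBayes), tested on simulated data. Each of 13 comparisons used an F-test over its times, or a moderated test at 0 h. The 62 Rab genes, their groups by role and the lists of regulators, effectors and markers were chosen with earlier results of these data known. Called genes were named, at most 10 per comparison, with array values for the 8 with the largest change. Rab5a, Rab5b, Rab5c, Rab7, Rab11a, Rab11b, Rab20, Rab27a, Rab31, Rab32, Rab38 and paralogues were named whatever they did, and at most 4 called genes per list and course from the other lists. Rab4a, Rab40c and Rab42, outside those 10, and the genes called in no course that are not on that list were named after their values were seen. Deviations of arrays of equal replicate number had a median correlation of 0.0046 over 496 pairs of groups. It ran from -0.47 to 0.55, with 46 pairs over 0.1. In the 9 groups split by the set of 11, the array in the set was replicate 2, except for IFN-gamma at 4 h. The numbers were not used for pairing in the main fit. Alternatives changed the scaling, the filter on dim probe sets, the probe set of a gene, limma's settings, the arrays in the fit, the minimum change, the reference time and the replicate block, and left out arrays. The array set as a covariate for regulators, effectors and Rab genes not called was added after seeing the data. Promoter windows came from RefSeq (GRCm38.p6), matched by gene. A result on a further promoter motif is not reported here.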

Additional observations from a re-analysis of the deposited data

Results flagged for a closer look

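For 3 Rab genes the change from 0 h under LPS at 5 ng/ml differed between BALB/c and C57BL/6 cells by limma's test of the difference itself, which is why they are listed. The difference, BALB/c minus C57BL/6, was 1.48 for Rab6b at 8 h, -1.29 for Rab15 at 24 h and 1.06 for Rab20 at 1 h. Taken from 1 h, the difference was 1.60 for Rab6b and -1.45 for Rab15.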

How the results depend on the processing

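Of 81 results on single genes none changed sign under any alternative run. The replicate number as a replicate block, the dim probe sets left out, the mean of probe sets and limma's trend and robust settings changed no call among these 81 and moved no count by over 1.5 times. Without a minimum change 19 Rab genes passed with IFN-beta and 19 with IFN-gamma (30.6% each, beside 37.4% and 28.9% of all genes). With LPS 39 passed in BALB/c (62.9%, beside 47.7%). At 50, 5 and 0.5 ng/ml 33, 30 and 32 passed (53.2%, 48.4% and 51.6%, beside 46.4%, 46.4% and 40.1%). For the other comparisons only the share of all genes is in brackets. Between the interferons 14 passed (18.3%), and 34 and 39 between IFN-beta or IFN-gamma and LPS (41.2% and 42.1%). Between doses 17 passed (25.3%) and between strains under LPS 27 (31.2%). For the strain difference of the change 11 passed (15.6%), and at 0 h 7 (9.57%). Without the set of 11 arrays 3 were called with IFN-beta, whose 4 h group is then empty, 2 between the interferons and 1 between doses. Without the 5 pairs that stood apart 2 were called between the interferons, and from 1 h 8 with LPS in BALB/c. With each array left out in turn the counts ran from 6 to 7 with IFN-beta, 4 to 4 with IFN-gamma, 12 to 14 with LPS in BALB/c, 11 to 12, 8 to 12 and 3 to 5 at 50, 5 and 0.5 ng/ml, 4 to 7 between the interferons, 9 to 11 and 10 to 12 between each interferon and LPS, 0 to 1 between doses, 3 to 6 between strains under LPS, 2 to 3 for the strain difference of the change and 3 to 3 at 0 h. The 7 between the interferons came without replicate 1 of IFN-gamma at 4 h, and the 1 between doses without replicate 2 of 50 ng/ml at 4 h. Leaving out an array ended the call of 10 of the 81 results. Quantile normalisation took Rab3a and Rab3d between IFN-beta and LPS to 0.97 each, and centring on medians took that of Rab3a to 0.99. Fewer arrays in the fit gave Rab42 an adjusted p of 0.1 by limma. The cause of the other lost calls was not tested. Probe sets near the 40th percentile, such as those of Rab38, Rab42 and Rab39b, lie close to the background, so small changes of these genes may not be detectable.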
